A study of Mus musculus with 54 samples.

Results

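The 35 genes described here encode the enzymes that build cholesterol and fatty acids, with the proteins that switch those enzymes on and that carry or export cholesterol. They were taken by symbol from a list of pathway genes, drawn up with earlier results of these data known. Of the 35, 18 belong to sterol synthesis, 10 to fatty acid synthesis and 7 to regulation and transport. All 35 were found in each of 4 expression tables, among 26264 genes listed for lung fibroblasts and 32534, 34652 and 35003 symbols listed for whole lungs. A filter on low values kept 34 of the 35 in fibroblasts and all 35 in each lung table. Idi1, which isomerises isopentenyl diphosphate, was the 1 left out, at 0 to 0.746 TPM in the 24 fibroblast libraries. TPM is a gene's share of a library's transcripts, corrected for gene length and scaled to a fixed total.

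The study asked how amino acids with branched chains (BCAA, that is valine, leucine and isoleucine) and the keto acids made from them (BCKA) bear on lung fibroblasts and on lung injury by bleomycin. Wild-type primary mouse lung fibroblasts, from mice 6 to 8 weeks old, gave 24 libraries in 8 groups of 3. The cells, obtained by collagenase digestion and adhesion, spent 24 h in complete medium, in BCAA-free medium, or in BCAA-free medium with BCAA or with BCKA returned. They then received PBS or TGF-β1 (transforming growth factor β1) at 20 ng/mL, a cytokine that drives fibroblasts towards matrix-secreting myofibroblasts, for 48 h. Whole lungs of wild-type male C57BL/6 mice, 10 to 12 weeks old, gave 30 libraries in 9 groups from 3 experiments. In the water experiment (3 mice per group), PBS, 1.25 mg/kg bleomycin, and 1.25 mg/kg bleomycin with 3 mM BCAA in drinking water were compared. The BCAA water began 7 days before bleomycin, and lungs of all 3 groups were taken on day 14. In the diet experiment (4 mice per group), PBS with normal diet, 1.25 mg/kg bleomycin with normal diet, and 1.25 mg/kg bleomycin with a BCAA-free diet for 14 days from day 7 were compared, with lungs taken on day 21. In the BT2 experiment (3 mice per group), PBS (DMSO stands in the titles of these mice, but no label says that they were injected), 3.5 mg/kg bleomycin with daily 10% DMSO, and 3.5 mg/kg bleomycin with 20 mg/kg BT2 daily were compared. Injections there ran for 11 days from day 3, and lungs were taken on day 14. BT2 inhibits the kinase that restrains BCKA oxidation. The sources do not say whether the 3 fibroblast libraries of a group came from separate cultures or animals, so p-values measure the spread between these libraries, which may be technical.

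Cholesterol is assembled from acetyl-CoA through mevalonate, squalene and lanosterol, and fatty acids from acetyl-CoA through malonyl-CoA, before desaturases and elongases shape the chains. Both pathways are driven by the SREBP transcription factors (genes Srebf1 and Srebf2), which Insig proteins hold in the endoplasmic reticulum together with their escort Scap while sterols are plentiful, and which are cut free and enter the nucleus when sterols run low. The exporters Abca1 and Abcg1 are classical targets of the sterol-sensing LXR receptors, which respond to sterol excess. In the lung, alveolar type 2 cells make fatty acids for surfactant, and macrophages take up and export surfactant lipid.

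Promoter windows are shown for the 4 members with the most matches to the sterol response element letters. Ties were settled by the larger absolute change in the fibroblasts on removal of BCAA under TGF-β1, where all 4 genes were lower. Of the 4, those letters were found in the window of Hmgcs1 alone, so Hmgcs1 is shown because it held them. The other 3 were chosen by their change, and held CCAAT or GC boxes, which are common in promoters. RefSeq windows (build GRCm38.p6, from 250 bases before to 50 bases after a gene's start) matched 27 of the 35 members, in 33 windows; Fdps, Fdft1, Sqle, Stard4, Scd1, Scd2, Fads1 and Abcg1 had none. Capitals mark matches, on either strand, to the sterol response element letters TCACNCCAC, the CCAAT box letters CCAAT, or the GC box letters GGGCGG. The 4 are the promoters of Hmgcs1 (chr13:119690101-119690400), Nsdhl (chrX:72918271-72918570), Acss2 (chr2:155517793-155518092) and Insig1 (chr5:28071162-28071461), all on the plus strand.
Hmgcs1: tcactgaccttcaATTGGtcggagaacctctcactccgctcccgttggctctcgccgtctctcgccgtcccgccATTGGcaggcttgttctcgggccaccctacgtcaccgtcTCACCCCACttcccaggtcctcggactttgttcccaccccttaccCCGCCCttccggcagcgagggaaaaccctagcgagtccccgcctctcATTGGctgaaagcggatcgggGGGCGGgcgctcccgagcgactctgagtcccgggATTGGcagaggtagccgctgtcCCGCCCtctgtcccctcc
Nsdhl: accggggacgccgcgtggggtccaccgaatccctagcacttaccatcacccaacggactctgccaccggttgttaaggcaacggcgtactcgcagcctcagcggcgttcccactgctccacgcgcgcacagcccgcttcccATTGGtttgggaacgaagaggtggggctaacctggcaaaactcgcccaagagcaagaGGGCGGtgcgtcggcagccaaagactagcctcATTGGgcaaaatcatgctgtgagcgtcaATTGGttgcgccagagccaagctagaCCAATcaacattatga
Acss2: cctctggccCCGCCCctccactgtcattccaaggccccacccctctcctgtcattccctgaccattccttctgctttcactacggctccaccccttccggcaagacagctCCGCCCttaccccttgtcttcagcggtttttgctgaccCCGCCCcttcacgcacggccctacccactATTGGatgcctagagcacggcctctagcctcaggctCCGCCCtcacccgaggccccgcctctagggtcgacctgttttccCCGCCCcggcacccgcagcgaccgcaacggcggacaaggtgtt
Insig1: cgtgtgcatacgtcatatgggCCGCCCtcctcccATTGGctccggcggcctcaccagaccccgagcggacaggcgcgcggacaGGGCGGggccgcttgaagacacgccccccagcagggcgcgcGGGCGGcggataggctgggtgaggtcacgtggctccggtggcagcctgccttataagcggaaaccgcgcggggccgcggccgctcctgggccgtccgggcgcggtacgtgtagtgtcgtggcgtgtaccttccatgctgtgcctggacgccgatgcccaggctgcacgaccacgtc
The sterol response element letters occurred in 1 member window, that of Hmgcs1, against 1.24% of all 32851 windows of this length. CCAAT occurred in 22 of the 33 member windows (66.7%, against 37.4% of all windows), and in 14 of the 18 windows of sterol synthesis genes. GGGCGG occurred in 25 of the 33 (75.8%, against 35.7%). The DR4 element, the direct repeat bound by LXR, matched 0 of the 33 windows and 0.0152% of all windows. None of these patterns contains another, though neighbouring matches can share end letters, and a match describes letters only.

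Sequencing depth is unknown because the tables hold TPM only. Fibroblast libraries listed 15003 to 16653 genes above 0, and lung libraries 17554 to 25632. In the fibroblasts some markers of other cell types were at or near 0 and others were not. The surfactant genes Sftpc, Sftpa1, Sftpb and Sftpd, the macrophage gene Adgre1 and the adipocyte gene Adipoq were at or near 0 TPM, while the summed fibroblast markers reached 14104 to 15113 TPM in complete medium with PBS. The 8 macrophage markers summed to 694 to 734 TPM in that group, most of it Spp1, Gpnmb and Cd14, and over the 8 groups up to 1198. The 5 mesothelial markers summed to 95.8 to 106 TPM there, with none below 1 TPM. The BCAA-free TGF-β1 libraries disagreed on the fibroblast sum, at 56471, 11616 and 15416 TPM, so replicate 1 stood apart, and counts that rest on it are given with and without it. Among lung libraries, replicate 3 of the BCAA-free diet group stood apart (17554 genes listed above 0 and 16.5% mitochondrial transcripts), as did replicate 2 of the bleomycin group in the BT2 experiment. The PBS group of the diet experiment stood apart as a group, with 12.2 to 17.3% mitochondrial transcripts and a summed endothelial marker level of 99.2 to 184 TPM, against 1474 to 2049 TPM in the bleomycin group beside it.

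In fibroblasts in complete medium, TGF-β1 raised most of the sterol and fatty acid genes. Of the 34 tested members, 25 rose and 1 fell at an adjusted p under 0.05, where 12.2% of all 13084 genes tested rose and 36.4% fell. The members' median log2 difference was 0.817, against -0.202 over all genes tested; log2 differences are on the log2(TPM + 1) scale, which understates changes of low genes. In sterol synthesis 14 of 17 rose and none fell, with a median of 1.08. The largest rises there were those of Mvd, mevalonate diphosphate decarboxylase (1.72), Fdps, which makes farnesyl diphosphate (1.69), and Cyp51, the lanosterol demethylase (1.6). Mvk, the mevalonate kinase, Hsd17b7, a ketoreductase, and Ebp, a sterol isomerase, did not pass (log2 0.12, 0.17 and 0.10). In fatty acid synthesis 6 of 10 rose: the stearoyl-CoA desaturases Scd1 (1.46) and Scd2 (1.48), the polyunsaturated desaturases Fads1 (0.68) and Fads2 (0.52), Acss2, which activates acetate (0.93), and Acaca, acetyl-CoA carboxylase (0.47). Of the 26 calls 23 held with each library left out. That on Acaca ended without replicate 1 or 3 of complete medium with TGF-β1 or replicate 3 of complete medium with PBS (adjusted p 5.83e-10 to 0.126 over its alternatives). Those on Srebf2 and Scap ended without replicate 3 of complete medium with TGF-β1 (1.59e-09 to 0.0656 and 3.4e-07 to 0.0654). Among regulators and transporters 5 of 7 rose, and the cholesterol exporter Abca1 was the 1 member that fell (log2 -1.63, SE 0.176, adjusted p = 1.1e-07).

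Without TGF-β1, removing BCAA did not move any member past the threshold. With PBS, 0 of 34 members were called between BCAA-free and complete medium, where 0.91% of all genes were, in limma. At an unadjusted p under 0.05 there were 2 higher and 0 lower. The members' 95% confidence intervals lay between -0.68 and 0.78 on the log2 scale. With array weights, which give less weight to variable libraries, 12 members were called, 10 of them higher. Their median over the 34 members was 0.0479, against -0.0144 over all genes, and the share of all genes called in that fit is not given here.

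**Figure D1:**
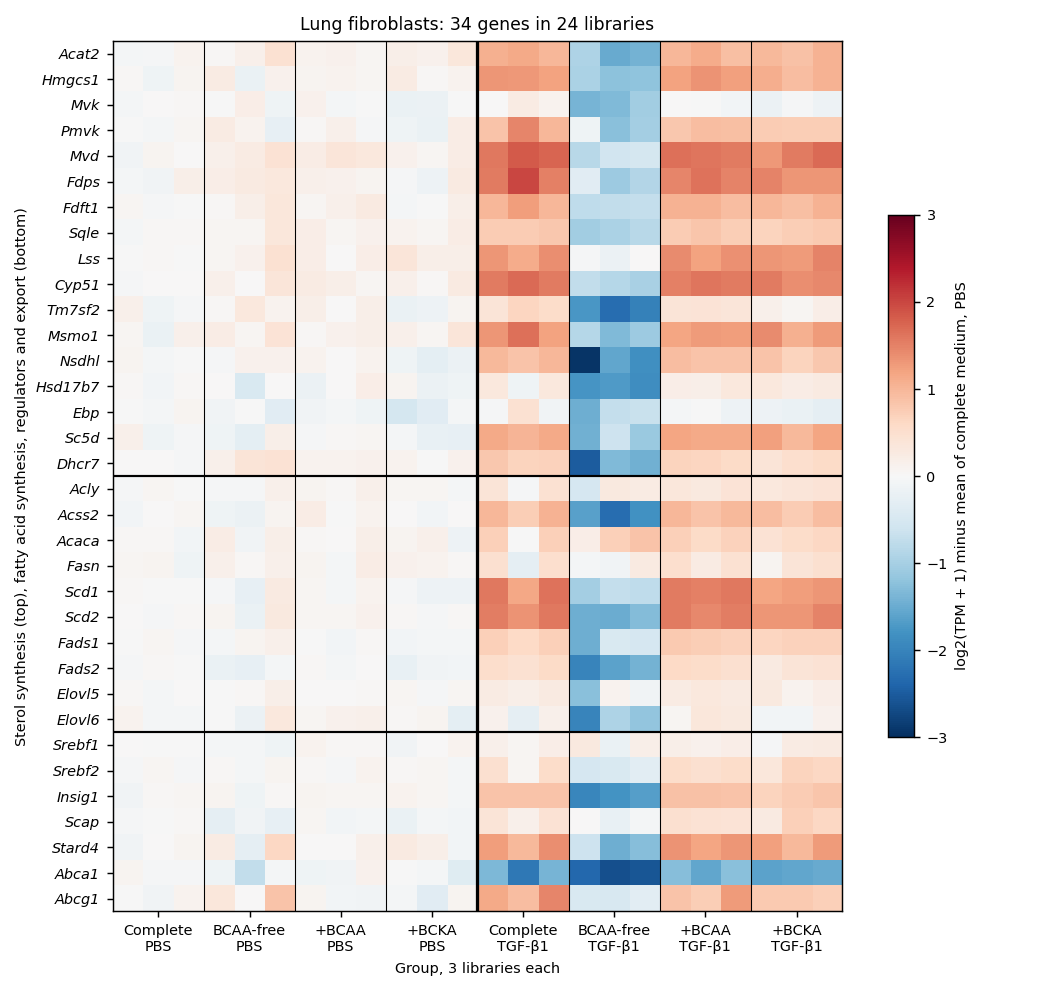
Heat map of log2(TPM + 1) for the 34 tested members (rows, in the order sterol synthesis, fatty acid synthesis, regulators and export) in each of the 24 fibroblast libraries (columns, 3 per group), as the difference from the mean of complete medium with PBS. The 4 PBS groups differ little in colour, and the 3 libraries of BCAA-free medium with TGF-β1 form the band of low values. In that band the rows of Acaca, Srebf1, Acly and Fasn are not low on average, and those of Lss and Scap are close to the reference.

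Under TGF-β1, the same removal lowered most of the pathway, while Acly, Acaca, Fasn and Srebf1 were not called. All 17 tested sterol genes fell, as did 7 of 10 fatty acid genes and 6 of 7 regulators and transporters. That made 30 of 34 members lower and 0 higher in limma (also 0 higher at an unadjusted p under 0.05), where 24.8% of all genes fell, and the members' median was -1.93, against 0.103 over all genes. Without replicate 1 of BCAA-free medium with TGF-β1, which stood apart, 30 fell again, with a median of -1.95. With each library's median ratio to the table's average set at 0, 31 members were lower (median -2.03, against -0.00306 over all genes). With array weights 32 were lower and 1 was higher (median -1.98, against 0.167). Whether Acly, Acaca, Fasn and Srebf1 passed thus depended on the setting. The summed TPM of the 18 sterol genes was 1784, 1972 and 1765 in complete medium and 417, 391 and 398 in BCAA-free medium. That was below the 817, 779 and 841 of complete medium with PBS, so the ranges did not overlap. Fabp4 supplied most of an adipocyte marker sum that moved with these genes. That sum ranged over 69.97 to 93.7 TPM in complete medium and 8.84 to 13.5 in BCAA-free medium, while Adipoq, Cidec, Lep and Cidea were at or near 0 in both groups. The mesothelial markers Msln, Upk3b, Wt1, Lrrn4 and Upk1b also moved with the members, summing to 43.3 to 44.4 TPM in complete and 14.8 to 17.9 in BCAA-free medium, each of the 5 without overlap, and to 37.7 to 39.8 with BCAA and 34.5 to 42 with BCKA returned. With PBS in complete medium, where most members were lower than with TGF-β1, their sum was higher, as given above. The part of either list in the result was not tested.

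The fall ran through each stretch of sterol synthesis. In the mevalonate arm 6 of 6 tested genes fell, with a median log2 difference of -2.36: Acat2 (-2.35), which makes acetoacetyl-CoA, Hmgcs1 (-2.4), which makes HMG-CoA, Mvk (-1.38), Pmvk, the phosphomevalonate kinase (-1.91), Mvd (-2.36) and Fdps (-2.45). Acat2 has a close relative, Acat3, next to it in the genome, between which reads are uncertain. The squalene and lanosterol steps fell less, with a median of -1.72 over Fdft1, squalene synthase (-1.82), Sqle, squalene epoxidase (-1.72), and Lss, lanosterol synthase (-1.35). The 8 genes from lanosterol to cholesterol had a median of -2.47 and ranged from -3.05 (Nsdhl) to -1.06 (Ebp). The order of these stretches is a description, and the differences between them were not tested.

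Nsdhl, a sterol decarboxylase and the sterol gene that fell furthest, stood with PBS at 31.7, 28.8 and 29.8 TPM in complete medium, at 29.1, 32.8 and 33.2 in BCAA-free medium, at 32.7, 30.4 and 32.7 with BCAA returned and at 27.5, 24.5 and 26.6 with BCKA returned. Under TGF-β1 Nsdhl stood, in the same order of media, at 59.8, 55.3 and 60.6, at 3.07, 9.63 and 7.63, at 58.3, 55.7 and 55.2 and at 55.3, 48.8 and 53.1 TPM. The 3 BCAA-free TGF-β1 libraries were below all others, and the fitted difference on removal was -3.05 (SE 0.20, adjusted p = 1.92e-11). Tm7sf2, a sterol reductase, stood with PBS at 15, 12.2 and 13 TPM in complete medium, at 13.8, 16.8 and 14.5 in BCAA-free medium, at 15.3, 13.5 and 15.2 with BCAA returned and at 11.6, 12 and 14.2 with BCKA returned. Under TGF-β1 Tm7sf2 stood, in the same order of media, at 17.9, 21.5 and 19.98, at 3.29, 1.93 and 2.5, at 17.8, 18.1 and 17.4 and at 14.9, 14 and 15.5 TPM. Its level with TGF-β1 in BCAA-free medium was likewise the lowest of all groups, with no overlap, and the difference was -2.55 (SE 0.128, adjusted p = 2.11e-13). Msmo1, the methylsterol monooxygenase, stood with PBS at 67.7, 56.1 and 72.5 TPM in complete medium, at 75.6, 68.2 and 87 in BCAA-free medium, at 66.7, 71.5 and 73.3 with BCAA returned and at 72.3, 67.7 and 84.1 with BCKA returned. Under TGF-β1 Msmo1 stood, in the same order of media, at 165, 207 and 151, at 35.6, 25.4 and 29.8, at 148, 159 and 157 and at 174, 137 and 160.3 TPM. The difference on removal was -2.48 (SE 0.136, adjusted p = 8.9e-13), and BCAA-free values did not overlap those of any other group with TGF-β1. Dhcr7, which makes cholesterol in the last step of one branch, stood with PBS at 21.3, 21.4 and 20.6 TPM in complete medium, at 23.6, 27.8 and 28.6 in BCAA-free medium, at 22.8, 22.8 and 23.3 with BCAA returned and at 22.8, 20.8 and 23 with BCKA returned. Under TGF-β1 Dhcr7 stood, in the same order of media, at 38, 34.2 and 34.8, at 2.94, 7.87 and 7.17, at 33.9, 33.3 and 32.1 and at 27.9, 30.4 and 32 TPM. It differed on removal by -2.48 (SE 0.183, adjusted p = 1.5e-10), and replicate 1 of the BCAA-free group was the lowest library. Cyp51 (log2 -2.46), Sc5d, the sterol desaturase (-2.15), and Hsd17b7 (-1.94) fell as well.

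In fatty acid synthesis the calls fell on some steps and not on others, a difference that was not itself tested. Not called were Acly, which makes acetyl-CoA from citrate (log2 -0.25, SE 0.148, adjusted p = 0.146), Acaca (log2 0.12, SE 0.166, adjusted p = 0.535) and Fasn, fatty acid synthase (log2 -0.20, SE 0.155, adjusted p = 0.278). Acss2 and all 6 desaturases and elongases fell, the latter with a median of -1.84. Scd2, a desaturase and the member with the highest TPM in complete medium, stood with PBS at 620.0, 595 and 628 TPM in complete medium, at 652, 539 and 746 in BCAA-free medium, at 644, 639 and 668 with BCAA returned and at 628, 597 and 625 with BCKA returned. Under TGF-β1 Scd2 stood, in the same order of media, at 1779, 1556 and 1838, at 221, 217 and 248, at 1802, 1672 and 1775 and at 1548, 1548 and 1713 TPM. Removal of BCAA lowered it by 2.91 (SE 0.101, adjusted p = 4.16e-16), and the BCAA-free libraries did not overlap any other group. Acss2 stood with PBS at 29.9, 31.6 and 32.9 TPM in complete medium, at 28.8, 27.6 and 33.4 in BCAA-free medium, at 36.9, 31.2 and 33.9 with BCAA returned and at 31.8, 29.7 and 31.6 with BCKA returned. Under TGF-β1 Acss2 stood, in the same order of media, at 63.6, 53.4 and 66.2, at 9.48, 5.68 and 8.16, at 63.2, 58.1 and 62.4 and at 60.5, 54.4 and 60.9 TPM. Its difference on removal was -2.84 (SE 0.127, adjusted p = 3.13e-14), again with the 3 BCAA-free libraries below all others.

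Scd1, a paralog of Scd2 whose reads may be shared between the copies, stood with PBS at 179, 173 and 174 TPM in complete medium, at 171, 148 and 211 in BCAA-free medium, at 181, 168 and 188 with BCAA returned and at 172, 157 and 158 with BCKA returned. Under TGF-β1 Scd1 stood, in the same order of media, at 526, 393 and 544, at 85.5, 107 and 102, at 520.1, 502 and 522 and at 401, 416 and 442 TPM. The difference was -2.29 (SE 0.121, adjusted p = 5.02e-13). Fads2, the first desaturase of polyunsaturated fatty acids, stood with PBS at 143, 149 and 144 TPM in complete medium, at 127, 122 and 138 in BCAA-free medium, at 148, 140.5 and 147 with BCAA returned and at 123, 135 and 136 with BCKA returned. Under TGF-β1 Fads2 stood, in the same order of media, at 211, 198 and 218, at 35.9, 47.3 and 54.1, at 222, 212 and 204 and at 174, 189.9 and 198 TPM. It fell by 2.19 on the log2 scale, without overlap between groups. Of all genes tested, 22.3% lay lower without overlap on this removal. Fads1 (-1.5) and the elongases Elovl6 (-1.37) and Elovl5 (-0.65) fell with smaller fitted differences, and the call on Elovl5 ended when only the 2 compared groups were fitted (adjusted p 6.47e-10 to 0.15 over its alternatives). Fasn gave 344, 205 and 346 TPM in complete medium with TGF-β1 and 236, 229.5 and 297 in BCAA-free medium, so its groups overlapped. In the same libraries Acaca gave 97.4, 58.8 and 98.3 and 68, 99 and 109 TPM, also overlapping.

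**Figure D2:**
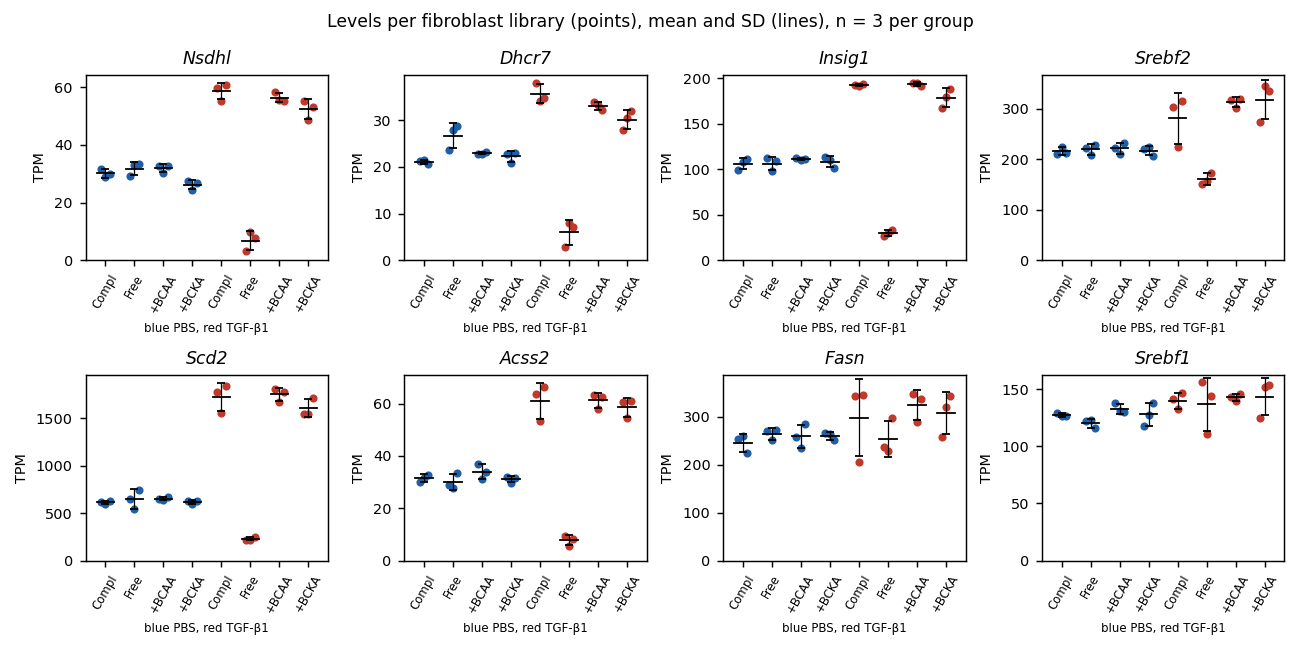
TPM per library (points) with group mean and SD (lines) for 8 members in the 8 fibroblast groups of 3, PBS in blue and TGF-β1 in red. Nsdhl, Dhcr7, Insig1, Srebf2, Scd2 and Acss2 were lowest in BCAA-free medium with TGF-β1, while Fasn and Srebf1 overlapped between that group and complete medium with TGF-β1.

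Of the 2 SREBP genes 1 was called, and the difference between them was not tested. Srebf2, whose product drives mainly the sterol genes, stood with PBS at 211, 225 and 212 TPM in complete medium, at 222, 208 and 228 in BCAA-free medium, at 222, 211 and 233 with BCAA returned and at 221, 224 and 207 with BCKA returned. Under TGF-β1 Srebf2 stood, in the same order of media, at 303, 223 and 316, at 151, 156 and 173, at 318, 301 and 319 and at 273, 346 and 335 TPM. It fell on removal (log2 -0.79, SE 0.109, adjusted p = 1.97e-06). Srebf1, whose product drives mainly fatty acid genes, stood with PBS at 129, 127 and 126 TPM in complete medium, at 122, 123 and 116 in BCAA-free medium, at 138, 131 and 129.6 with BCAA returned and at 118, 128 and 138 with BCKA returned. Under TGF-β1 Srebf1 stood, in the same order of media, at 141, 132 and 146, at 156, 111 and 144, at 143, 139 and 146 and at 125, 152 and 154 TPM. Its groups overlapped and it was not called (log2 -0.05, SE 0.103, adjusted p = 0.726). Insig1, which retains SREBP and is itself an SREBP target, stood with PBS at 99.1, 108 and 111 TPM in complete medium, at 112, 97.6 and 109 in BCAA-free medium, at 113, 110.0 and 111 with BCAA returned and at 113, 111 and 101 with BCKA returned. Under TGF-β1 Insig1 stood, in the same order of media, at 192, 192 and 194, at 26.4, 29.8 and 33.1, at 195, 194 and 192 and at 168, 179.9 and 188 TPM. It fell furthest of the regulators (log2 -2.66, SE 0.0839, adjusted p = 9.51e-17). Scap fell by 0.41, a call that ended with only the compared groups fitted (adjusted p 1.65e-10 to 0.0733 over its alternatives). Stard4, a carrier of cholesterol between membranes, fell by 2.32 on the log2 scale.

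The exporters fell too, from very different levels. Abca1 stood with PBS at 298, 277 and 275 TPM in complete medium, at 257, 169.9 and 269.8 in BCAA-free medium, at 259.8, 263 and 310.0 with BCAA returned and at 283, 270.2 and 220.2 with BCKA returned. Under TGF-β1 Abca1 stood, in the same order of media, at 111, 63.5 and 107, at 54.2, 44.3 and 46.8, at 117, 94.8 and 118 and at 92, 94.9 and 98.7 TPM. It fell with TGF-β1 in complete medium and again on removal of BCAA (log2 -0.90, SE 0.176, adjusted p = 0.000149). Abcg1 stood with PBS at 0.661, 0.543 and 0.792 TPM in complete medium, at 1.1, 0.665 and 2.0 in BCAA-free medium, at 0.757, 0.562 and 0.55 with BCAA returned and at 0.598, 0.315 and 0.761 with BCKA returned. Under TGF-β1 Abcg1 stood, in the same order of media, at 2.66, 2.15 and 3.57, at 0.219, 0.188 and 0.339, at 2.0, 1.79 and 3.02 and at 1.86, 1.88 and 1.75 TPM. It was close to the filter of 1 TPM in these cells, and its fitted difference on removal was -1.59 (SE 0.182, adjusted p = 1.45e-07).

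The response to TGF-β1 itself differed between the media. In BCAA-free medium TGF-β1 lowered 29 of 34 members and raised 1, Acaca (0.50), where 34.9% of all genes fell and 29.2% rose. Without replicate 1 of BCAA-free medium with TGF-β1, 28 fell and 2 rose. The call on Acaca ended without replicate 2 of BCAA-free medium with PBS or replicate 3 of BCAA-free medium with TGF-β1 (adjusted p 8.53e-15 to 0.0817 over its alternatives). That on Lss ended without replicate 3 of the former or replicate 2 of the latter (0.0157 to 0.226), and that on Elovl5 without any 1 library of the former or replicate 1 of the latter (0.00107 to 0.426). The test of the difference between the responses in BCAA-free and complete medium called 28 members, all lower (18.4% of all genes were called lower). These were 17 of 17 sterol genes, 7 of 10 fatty acid genes and 4 of 7 regulators and transporters. Elovl5 was the 1 of them whose call ended when single libraries were left out, without any 1 PBS library or replicate 1 or 3 with TGF-β1 in complete medium, or replicate 2 or 3 with PBS in BCAA-free medium (adjusted p 1.9e-06 to 0.14 over its alternatives). The median difference over the 34 members was -2, against 0.129 over all genes, and 29 members were called without replicate 1 of BCAA-free medium with TGF-β1. For Nsdhl the response was 0.94 in complete medium and -2.18 in BCAA-free medium, a difference of -3.12 (SE 0.282, adjusted p = 1.01e-08). For Scd2 the responses were 1.48 and -1.48, and for Insig1 0.86 and -1.81.

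Returning either BCAA or BCKA to the BCAA-free medium brought the levels under TGF-β1 back up. With BCAA 30 of 34 members were higher than in BCAA-free medium (25.0% of all genes), with a median of 1.87, and with BCKA 30 were (25.1%), also with a median of 1.87. Without replicate 1 of BCAA-free medium with TGF-β1 these counts were again 30 and 30, with medians of 2.0 and 1.87. The removal and both returns share the BCAA-free TGF-β1 libraries, so their values are given side by side and not as independent results. Nsdhl differed by -3.05 on removal, by 2.99 on return of BCAA and by 2.89 on return of BCKA. The same 3 values for Hmgcs1 were -2.4, 2.39 and 2.15. For Ebp, the sterol gene that moved least, they were -1.06, 0.88 and 0.74. Acly, Acaca, Fasn and Srebf1 were not called with either return. At an unadjusted p under 0.05 in limma, 9 of the 10 fatty acid genes were higher with BCAA and 8 with BCKA. With each return 7 of them passed the threshold.

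**Figure D3:**
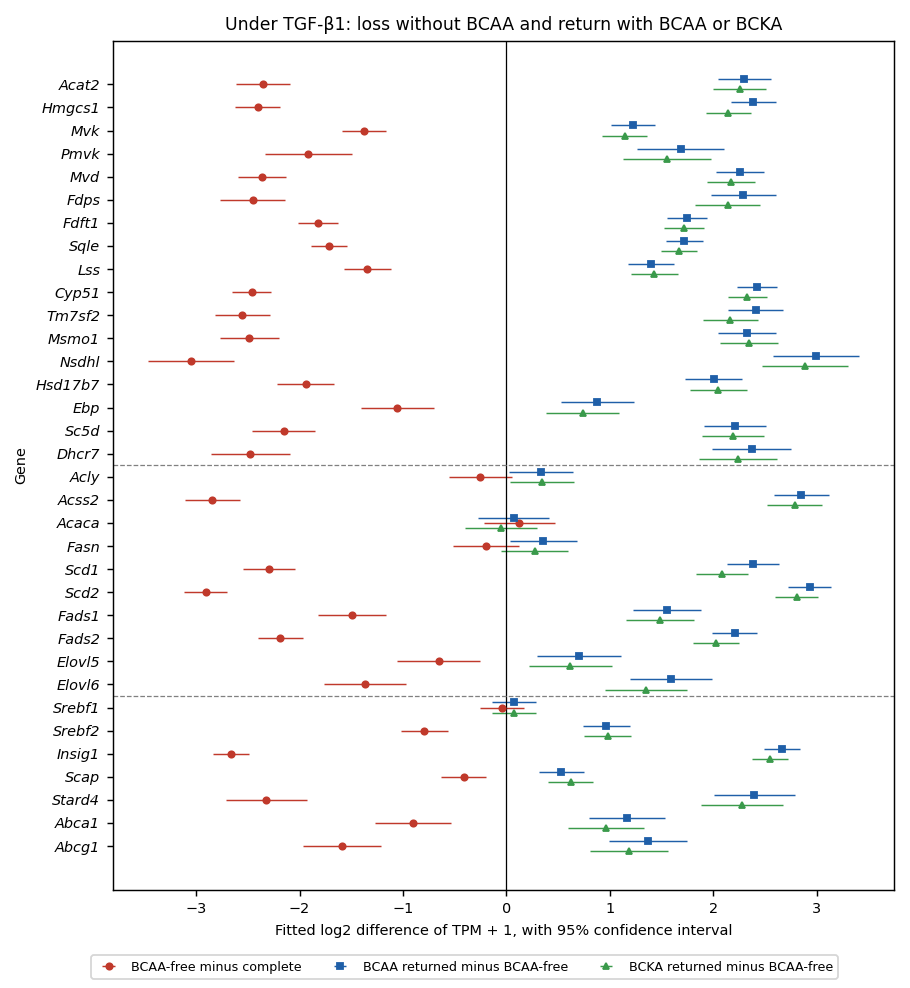
Fitted log2 differences of TPM + 1 with 95% confidence intervals for the 34 tested members under TGF-β1: BCAA-free minus complete medium (red circles), BCAA returned minus BCAA-free (blue squares) and BCKA returned minus BCAA-free (green triangles), with n = 3 libraries per group. The red points lie below 0 and the blue and green points above 0 for the 30 members called, and the intervals of Acaca and Srebf1 include 0 in all 3 comparisons, which share the BCAA-free libraries.

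After the return of BCAA or BCKA the members' mean levels under TGF-β1 lay between 65.5 and 117% of those in complete medium. As a percent of the mean TPM in complete medium with TGF-β1, the 17 sterol genes had a median of 19.1% (11.6 to 46.9%) in BCAA-free medium, 94.9% (83.5 to 104%) with BCAA returned and 89.4% (75 to 107%) with BCKA returned. For the 10 fatty acid genes the medians were 37.7%, 104% and 97.9%. For the 7 regulators and transporters they were 51.6%, 105% (81.3 to 117%) and 101% (65.5 to 116%), with Abcg1 the lowest under each return. No member was called between BCAA returned and complete medium (0.0153% of all genes in limma, and 0 members at an unadjusted p under 0.05), and the members' 95% confidence intervals lay between -0.65 and 0.63. Between BCKA returned and complete medium 0 members were called (0.611% of all genes), 4 were lower at an unadjusted p under 0.05, and 11 of 34 lay below complete medium without overlap (5.82% of all genes did) and 0 above. The intervals lay between -0.78 and 0.43. The direct comparison of BCKA with BCAA called 0 members (0.268% of all genes), with 2 lower and 0 higher at an unadjusted p under 0.05. There 28 of the 34 differences were negative, with a median of -0.0918, and the intervals lay between -0.64 and 0.32, and differences within these bounds are not settled by these libraries. With PBS, return of BCAA and of BCKA called 0 members each (0.26% and 0.665% of all genes), with 1 member lower at an unadjusted p under 0.05 in each.

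A further list of 55 genes of the same pathways, of which 50 were tested, moved in both directions on removal under TGF-β1. Of these 20 fell and 13 rose, where 24.8% of all genes fell and 35.5% rose, and the median was -0.188, against 0.103 over all genes. Tecr, the reductase that ends each round of very long chain elongation, fell from 266 to 73.1 TPM (-2.20). Among those chosen after their values were seen, Tmem97, a sterol-regulated membrane protein, fell by 2.04 and Lpcat3, which loads polyunsaturated chains onto phospholipids, by 1.98 on the log2 scale. Also chosen after their values were seen, Stard5, a sterol carrier, rose from 20.8 to 83.8 TPM (1.96) and Spring1, which supports SREBP processing, by 1.65. Other such picks were Vldlr, a lipoprotein receptor, which rose by 1.60, and Mbtps2, a protease that frees SREBP, by 0.94. These picks do not describe the list as a whole.

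In whole lungs the picture was more mixed, and fewer cells of a type cannot be told apart from less RNA per cell. Bleomycin raised 12 of 35 members and lowered 2 in the water experiment, where 14.8% of all 17209 genes tested rose and 7.08% fell. It raised 13 and lowered 3 in the diet experiment (48.7% and 12.3% of 18593 genes), and raised 4 and lowered 3 in the BT2 experiment (17.3% and 13.3% of 18151). In the diet and BT2 experiments the shares of members that rose and that fell were each below those of all genes. The median log2 difference over all genes was 0.559 in the diet experiment, against 0.228 for the members. In the BT2 experiment it was -0.0192, against 0.0219 for the members. After centring, which sets each library's median ratio to the table's average at 0, the counts of higher and lower members were 12 and 4 in the water, 10 and 13 in the diet and 4 and 5 in the BT2 experiment. In those fits the members' medians were 0.219, -0.335 and 0.0305, against -0.00574, -0.00501 and -0.0106 over all genes. The share of all genes called in them is not given here, so these counts are not read against a background. These fits share no libraries, but doses and days differ. Hsd17b7 and Abcg1 rose in all 3 experiments, and Acss2 fell in all 3. The share of all genes called the same way in all 3 is not given here. The call on Hsd17b7 ended in 7 of 14 alternatives in the water and 1 of 14 in the BT2 experiment. Those on Abcg1 and Acss2 held in each alternative.

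**Figure D4:**
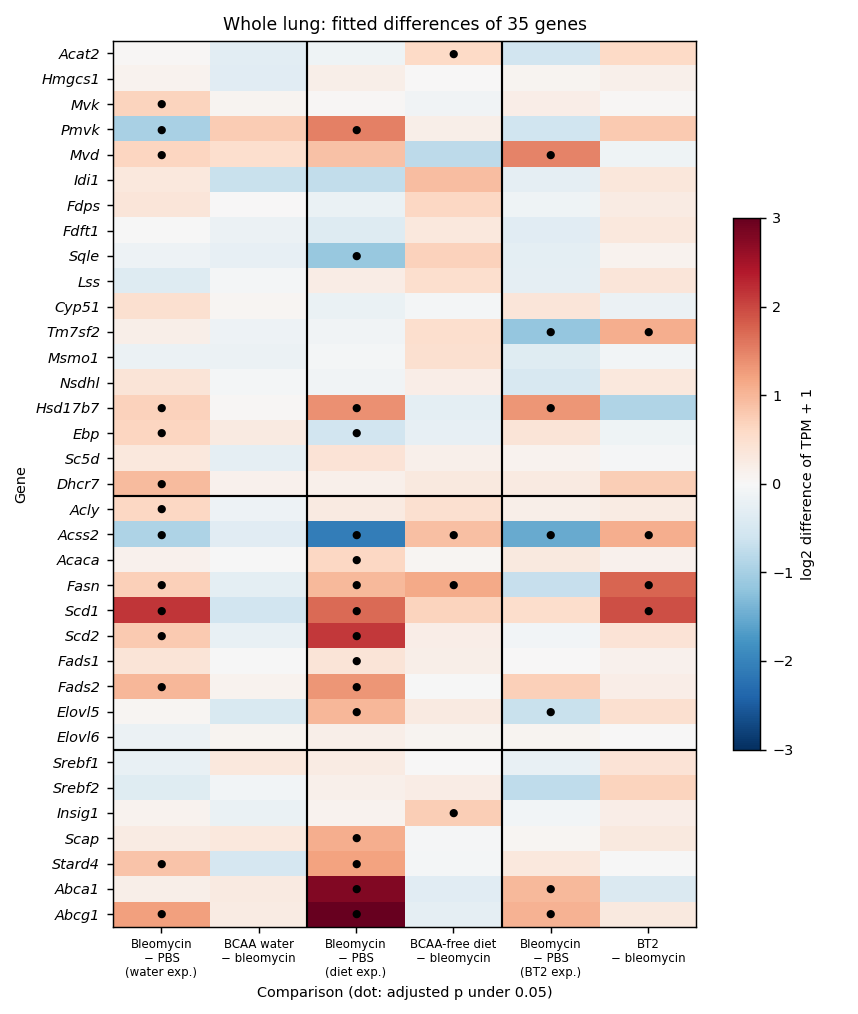
Heat map of fitted log2 differences of TPM + 1 for the 35 members (rows) in the 6 lung comparisons (columns), with a dot where the adjusted p was under 0.05. Acss2 is blue with a dot in the 3 bleomycin columns and red with a dot in the BCAA-free diet and BT2 columns, and the column for BCAA in water holds no dot.

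Of the members that rose most with bleomycin, Scd1 led in the water experiment, at 261, 307 and 425 TPM with PBS and 1348, 1502 and 1476 with bleomycin. The groups did not overlap, and the log2 difference was 2.15 (SE 0.201, adjusted p = 7.92e-05). Abcg1 went from 14.3, 18.9 and 17.7 to 38.6, 43.3 and 41.1 TPM (log2 1.23, SE 0.151, adjusted p = 0.000348). Fads2 went from 20.7, 23.4 and 25 to 51.7, 50.1 and 40.6 TPM (1.01), again without overlap. Of all genes, 24.7% lay higher without overlap in this comparison. Dhcr7, Stard4, Scd2, Fasn, Mvk, Ebp, Mvd and Acly also rose, by 0.62 to 0.94 on the log2 scale. The members that fell were Pmvk (-0.96) and Acss2 (-0.93). Without replicate 1 of the PBS group 7 members were called, and without replicate 3 of the bleomycin group 9 were, in place of 14. The calls on Scd1, Abcg1, Fads2, Dhcr7, Ebp and Acss2 held with each library left out. The other 8 ended without at least 1 library, Mvd without replicate 2 of PBS, and Mvk, Acly, Fasn, Scd2, Stard4, Pmvk and Hsd17b7 without replicate 1 of PBS. Calls also ended for Pmvk without any 1 of the PBS libraries or replicate 1 or 3 of bleomycin (adjusted p 0.00206 to 0.128 over its alternatives) and for Hsd17b7 without replicate 1 or 2 of PBS or 1 or 3 of bleomycin (0.00758 to 0.154). Summed macrophage markers moved beside these genes, at 478 to 618 TPM with PBS and 3535 to 4257 with bleomycin, and summed alveolar type 2 markers were 40885 to 41629.8 and 35596 to 49650.2 TPM. Fibroblast markers summed to 351 to 559 TPM with PBS and 978 to 1359 with bleomycin. The 8 adipocyte markers, of which 2 with PBS and 3 with bleomycin were below 1 TPM, summed to 36.9 to 44.1 and 11.9 to 25.9. Their part in the result was not tested.

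In the diet experiment the exporters had the largest differences. Abcg1 was at 5.85, 4.73, 5.74 and 5.48 TPM with PBS and at 51, 49.9, 49.99 and 67.7 with bleomycin (log2 3.1, SE 0.152, adjusted p = 1.39e-08). Abca1 was at 6.03, 4.77, 6.32 and 6.28 and 48.3, 50.8, 41 and 42.4 TPM (log2 2.77, SE 0.205, adjusted p = 2.52e-07), and Scd2 at 121, 111, 135 and 87.4 and 410.5, 591, 459 and 518 TPM (2.12). None of these groups overlapped, but 51% of all genes lay higher without overlap in this comparison. Scd1 (1.69), Pmvk (1.5), Hsd17b7 (1.36), Fads2, Stard4, Scap, Elovl5, Fasn, Acaca and Fads1 rose as well. After median centring Acaca and Fasn were not called (adjusted p 0.000218 to 0.748 and 0.000439 to 0.105 over their alternatives), and Fads1 changed sign (log2 -0.172, adjusted p = 0.351, and 0.00186 to 0.351 over all alternatives). The call on Fads1 also ended without replicate 1 or 4 of PBS or replicate 2 or 4 of bleomycin. Acss2 (-2.08), Sqle (-1.14) and Ebp (-0.56) fell. Macrophage markers summed to 242 to 325 TPM with PBS and 6972 to 14565 with bleomycin, alveolar type 2 markers to 9209.7 to 13541 and 19858 to 27626, and cardiac muscle markers to 803 to 1766 and 42.4 to 83.6. Fibroblast markers summed to 271 to 387 TPM with PBS and 2306 to 3058 with bleomycin. With the low endothelial markers of the whole PBS group, these moved along with the comparison, and their part was not tested.

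In the BT2 experiment Mvd rose from 21.1, 19.2 and 17 TPM with PBS to 54.4, 66.7 and 47 with bleomycin (log2 1.5, SE 0.172, adjusted p = 0.000394). Hsd17b7 rose from 3.16, 4.19 and 4.36 to 8.25, 20.9 and 8.02 TPM (1.33), a call that ended without replicate 1 of the PBS group (adjusted p 0.00621 to 0.0634 over its alternatives). Acss2 fell from 13.3, 10.5 and 12.2 to 2.0, 3.72 and 5.61 TPM (log2 -1.51, SE 0.277, adjusted p = 0.00368), without overlap. Of all genes, 18.7% lay lower without overlap in this comparison. Abcg1 (1.04) and Abca1 (0.97) rose, and Tm7sf2 (-1.16) and Elovl5 (-0.66) fell. The call on Elovl5 ended in 8 of 14 alternatives, among them leaving out any 1 PBS library (adjusted p 0.00158 to 0.125). Replicate 2 of the bleomycin group was high for many members, and without it 15 members were called, 4 higher and 11 lower. The members' median was then -0.266, against -0.133 over all genes. The share of all genes called in that fit is not given here, so these counts are not read against a background. The 3 bleomycin libraries held alveolar type 2 markers summing to 2560.1, 16434 and 10568 TPM, against 47953 to 60922 with PBS. Their macrophage markers summed to 9949 to 19137 TPM, against 361 to 614, and neither was tested as a part of the result.

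Among bleomycin lungs, BCAA in drinking water called 0 of 35 members, where 1.2% of all genes were called in limma. At an unadjusted p under 0.05 there were 3 higher and 4 lower, and with array weights 5 were called. The smallest unadjusted p-values were those of Mvd, at 27.7, 31.1 and 28.4 TPM without and 34.6, 50.6 and 40.2 with BCAA (log2 0.49, adjusted p = 0.151), and Scd1, at 1348, 1502 and 1476 and 764, 1105 and 1079 TPM (log2 -0.57, adjusted p = 0.19). Neither pair of groups overlapped. Of the 35 members 2 lay higher and 5 lower without overlap, where 12.3% and 8.13% of all genes did. Without replicate 2 of the bleomycin group 2 members were called. The members' confidence intervals lay between -1.27 and 1.41 on the log2 scale. Markers of several cell types differed between these groups without overlap. Macrophage markers summed to 3535 to 4257 TPM without and 8603 to 10192 with BCAA, alveolar type 2 markers to 35596 to 49650.2 and 29081 to 34678, and fibroblast markers to 978 to 1359 and 1813 to 2419. Their part in the values of Mvd and Scd1 was not tested.

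The BCAA-free diet raised 4 of 35 members in bleomycin lungs and lowered 0, where 4.02% of all genes rose. At an unadjusted p under 0.05 in limma there were 11 higher and 0 lower. Fasn was at 55.5, 83.2, 51.8 and 87.5 TPM on normal diet and at 175, 135, 143 and 145 on BCAA-free diet, with no overlap (log2 1.13, SE 0.238, adjusted p = 0.011). Acss2 was at 3.71, 4.2, 3.8 and 4.3 and 8.49, 10.4, 7.03 and 7.97 TPM, also without overlap (log2 0.91, SE 0.142, adjusted p = 0.00196). It was below the 19.95, 20.8, 22.9 and 17.1 TPM of the PBS group. Of all genes, 6.05% lay higher without overlap on the BCAA-free diet. Insig1, at 38.1, 48.2, 46.5 and 44.3 and 95, 47.8, 83.8 and 79.8 TPM, differed by 0.74 (SE 0.191, adjusted p = 0.0296), and its ranges overlapped. Acat2 rose by 0.61, with an adjusted p of 0.02. The calls on Insig1 and Acat2 ended in 8 and 6 of 16 alternatives (adjusted p 0.00144 to 0.101 and 0.00011 to 0.0752), while those on Fasn and Acss2 held in each alternative. The count was 2 without replicate 1 or 3 of the bleomycin group or replicate 1 or 4 of the BCAA-free diet group, and 7 without replicate 2 or 3 of the latter, of which replicate 3 stood apart. Alveolar type 2 markers summed to 19858 to 27626 TPM on normal and 40973 to 60786 on BCAA-free diet, and macrophage markers to 6972 to 14565 and 2307 to 3861. Fibroblast markers summed to 2306 to 3058 TPM on normal and 1143 to 1646 on BCAA-free diet. Their part in the result was not tested.

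BT2 also raised 4 of 35 members in bleomycin lungs and lowered 0 (6.34% of all genes rose), and these calls rested on single libraries. At an unadjusted p under 0.05 in limma there were 8 higher and 2 lower, and the median over all genes was 0.116, against 0.252 for the members. Scd1 was at 143, 778 and 291 TPM with DMSO and at 1406, 1097 and 1188 with BT2 (log2 1.94, SE 0.476, adjusted p = 0.0336). Fasn was at 15.5, 61.5 and 22.2 and 76.5, 110.3 and 103 TPM (log2 1.74, SE 0.403, adjusted p = 0.0285), and Tm7sf2 at 3.73, 7.27 and 5.77 and 11.3, 11 and 16.6 TPM (log2 1.1, SE 0.245, adjusted p = 0.0262). In each the BT2 libraries were above all DMSO libraries, of which replicate 2 was the highest. The same held for 17.2% of all genes. Acss2 rose from 2.0, 3.72 and 5.61 to 8.69, 7.65 and 9.67 TPM (1.08). Without replicate 2 of the DMSO group 16 members were called, all higher, with a median over the members of 0.524, against 0.228 over all genes. The share of all genes called in that fit is not given here, so this count is not read against a background. Without replicate 1 of the DMSO group, or replicate 1 or 3 of the BT2 group, 0 were, and without replicate 2 of the BT2 group 1 was. With median centring 4 members were higher and 2 lower. Alveolar type 2 markers summed to 2560.1 to 16434 TPM with DMSO and 44928 to 78119 with BT2, and macrophage markers to 9949 to 19137 and 1827 to 3168. Fibroblast markers summed to 2289 to 2766 TPM with DMSO and 784 to 1833 with BT2. Their part in the result was not tested.

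**Figure D5:**
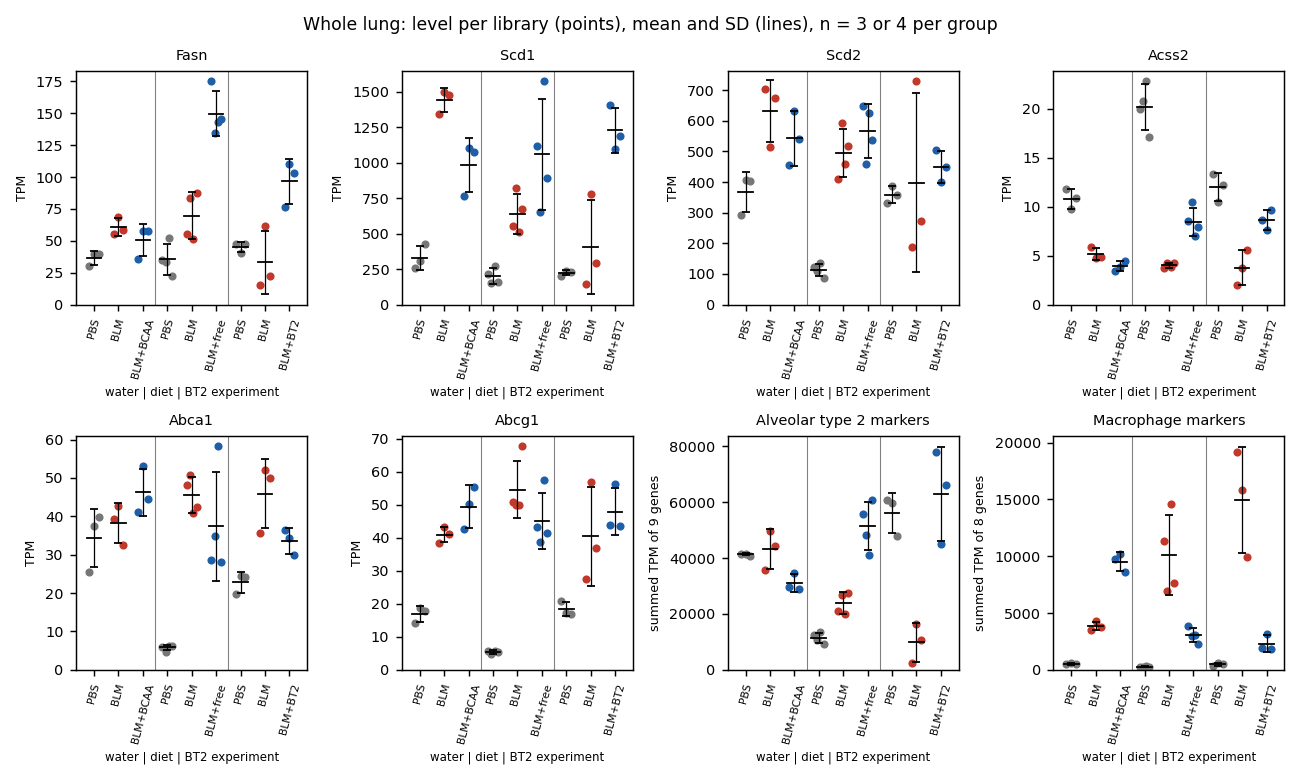
TPM per lung library (points) with group mean and SD (lines) for 6 members, and the summed TPM of 9 alveolar type 2 and 8 macrophage markers, in the 9 groups of the water, diet and BT2 experiments. The 2 treated groups with BCAA-free diet or BT2 lie above their bleomycin groups for Fasn and Acss2, the alveolar type 2 sums lie above theirs too, and the macrophage sums lie below.

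Fasn and Acss2 were the members called higher with both the BCAA-free diet and BT2, in experiments that share no library. With BT2 each of these calls ended in 6 of 14 alternatives (adjusted p 0.00119 to 0.107 for Fasn and 0.0118 to 0.134 for Acss2 in limma). The share of all genes called higher in both is not given here. The balance of the 2 desaturase paralogs is given here as the ratio of Scd1 to Scd2 TPM within a library, which reads shared between the copies could alter. In fibroblasts it was 0.387 to 0.494 in BCAA-free medium with TGF-β1 and 0.252 to 0.300 over the other 7 groups, among them 0.253 to 0.296 in complete medium with TGF-β1 and 0.262 to 0.283 in BCAA-free medium with PBS. In the water experiment it was 0.755 to 1.05 with PBS, 1.92 to 2.91 with bleomycin and 1.68 to 2.0 with BCAA added. In the BT2 experiment it was 0.609 to 0.645 with PBS, 0.758 to 1.06 with bleomycin and 2.65 to 2.79 with BT2. In the diet experiment it was 1.37 to 2.01 with PBS, 1.12 to 1.39 with bleomycin and 1.43 to 2.52 with the BCAA-free diet, and the PBS and bleomycin ranges overlapped. These ratios are descriptions without a test. The tables were normalised separately, so no level is compared between them.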

How the data were processed

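The deposited values are 4 tables of TPM made by the authors, for 24 fibroblast and 30 lung libraries in 17 groups, grouped by their labels. Per the submitters' processing notes, reads were handled with HISAT2, Subread with featureCounts, DESeq2, FastQC and Trim Galore on build mm39, with no version or role given, and no source used here names the annotation. Depth is unknown, so no counting error is given. The labels' protocols describe RNA extraction from heart tissue, while every tissue sample is labelled lung.

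Rows without a symbol (0.212 to 0.367% of lung TPM) were left out and repeated symbols added. Genes that reached a TPM of 1 in 3 or more of a table's libraries were tested on log2(TPM + 1) with limma 3.58.1 (R 4.3.3), a mean-variance trend and all groups of the table. Adjusted p-values are Benjamini-Hochberg over all genes tested, two-sided, called under 0.05, in 18 comparisons. The procedure was tested on simulated data. Every member was named, with values per library for the 4 sterol and 4 fatty acid members that changed most on BCAA removal under TGF-β1, 5 regulators, and 2 or 3 members per lung comparison. Of the further list the 3 largest changes were to be named, and some genes named by this rule are not reported here. The members and lists were chosen with earlier results of these data known. Promoter sequences are from RefSeq (GRCm38.p6). Alternatives were pseudocounts of 0.1 and 0.5, other filters, median centring, only the compared groups, array weights, a replicate block, and each library left out. Deviations of same-numbered libraries from their group means all correlated above 0.1 in 1 of 17 comparisons. That was BCAA returned against complete medium under TGF-β1 (correlations 0.199 to 0.486). With groups of 3 or 4 libraries this check cannot settle whether samples were paired.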

Additional observations from a re-analysis of the deposited data

Results flagged for a closer look

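In 2 of 105 combinations of a member and a group of 4 lung libraries (35 members in 3 groups), 1 library lay far from the others, where chance alone gives about 1 in 20. Mvk in the PBS group of the diet experiment was at 13.1 TPM in replicate 4, with the others at 28.7 to 30.5. Abcg1 in the bleomycin group of that experiment was at 67.7 TPM in replicate 4, with the others at 49.9 to 51.0. The response to TGF-β1 differed between BCAA-free and complete medium, in a test of the difference, for 28 members, by up to -3.12 on the log2 scale for Nsdhl.

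Some members moved in opposite directions in 2 experiments, each time without overlap between groups, and these differences between experiments were not tested. With bleomycin, 51% of all genes lay higher and 12.3% lower without overlap in the diet experiment, and 24.7% and 14.5% in the water experiment. Among bleomycin lungs these shares were 12.3% and 8.13% with BCAA in water. They were 6.05% and 13.2% with the BCAA-free diet, and 17.2% and 14.3% with BT2. The share of all genes that moved in opposite directions is not given here. With bleomycin, Pmvk differed by 1.5 in the diet and -0.96 in the water experiment, and Ebp by 0.65 in the water and -0.56 in the diet experiment, on the log2 scale. The call on Pmvk in the water experiment ended in 6 of 14 alternatives, and the PBS group of the diet experiment stood apart as a group. Among bleomycin lungs, Acat2 differed by 0.61 with the BCAA-free diet and -0.32 with BCAA in water, and Scd1 by 1.94 with BT2 and -0.57 with BCAA in water. Acss2 differed by 0.91 with the BCAA-free diet, 1.08 with BT2 and -0.33 with BCAA in water. None of the 3 values with BCAA in water passed the threshold.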

How the results depend on the processing

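Of 8978 values of single members under the alternatives, 8681 kept their side of the threshold and, where called, their direction. Of the rest, 183 newly passed it, 113 no longer did, and 1 called value reversed. That was Fads1 with bleomycin in the diet experiment under median centring (-0.172). Changes of direction among values not called were not counted as reversals. Array weights moved the count of members called most often: 19 for the BCAA-free diet, 14 for bleomycin in the BT2 experiment, 12 for BT2, 5 for BCAA in water, 12 for BCAA removal with PBS, 4 and 5 for return of BCAA and BCKA with PBS, 1 for BCKA against BCAA and 4 for BCKA returned against complete medium. Of the single values under array weights, 90 newly passed the threshold and 1 no longer did. With median centring the BCAA-free diet gave 8. With only the compared groups it gave 2, BT2 gave 0 and BCKA against BCAA gave 1, and without a filter on low values BT2 gave 0. With the replicate block the BCAA-free diet gave 2, where deviations of same-numbered libraries had correlations of -0.0468 to 0.0618. In BCAA returned against complete medium, where these were 0.199 to 0.486, the replicate block gave 0, as without it. Such correlations cannot settle whether samples were paired. Leaving out each library gave 7 to 13 members called for bleomycin in the water experiment, 5 to 15 in the BT2 experiment, 0 to 2 for BCAA in water, 2 to 7 for the BCAA-free diet and 0 to 16 for BT2. In fibroblasts it gave 23 to 28 for TGF-β1 in complete medium and 30 to 32 for removal of BCAA under TGF-β1. The shares of all genes called under these alternatives are not given here, so their counts do not set the members apart from other genes. Groups of 3 or 4 libraries and an unknown depth limit all comparisons.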
